A study of Mus musculus with 6 samples.

Results

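The proteasome genes of mouse liver were examined after an injection of LPS alone or together with GalN. The group holds the genes of the standing proteasome: every array target whose description carries the phrase "proteasome (prosome, macropain)", without beta types 8 to 11, which include the immunoproteasome subunits, and without activator subunits 1 and 2. Of 65 targets with that phrase, 59 remained, and they named 38 genes. Where a gene had several targets, its brightest, judged over the 6 arrays together, was used, a choice blind to the groups. The 38 genes are 38 of the 36456 genes or unnamed targets tested. They comprise 8 alpha and 7 beta subunits of the 20S core, 4 ATPases and 13 non-ATPase subunits or factors of the 26S regulatory particle, and 6 other genes: the inhibitor Psmf1, the activator Psme4, the assembly chaperones Psmg1, Psmg2 and Psmg3, and Psmc3ip. Psmc3ip is a recombination factor named for binding an ATPase subunit, and Psma8 is a testis form of an alpha subunit. Psmc1 and Psmc5, which belong to the ATPase ring, are described with another spelling and so fell outside.

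RNA came from the livers of 6 wild-type C57 BL/6 male mice aged 9 to 10 weeks, 1 mouse per array. The LPS group (n = 3) received 0.01 µg of LPS, a bacterial cell wall lipid sensed by Tlr4. The LPS/GalN group (n = 3) received the same LPS with 20 mg of GalN, an amino sugar that hepatocytes take up and that drains their uridine nucleotides. Livers were taken 2.5 hours later, and each replicate came from a treatment of its own. All mice thus carried LPS, and mice without treatment or with GalN alone were not analysed here, so each comparison below is of GalN on top of LPS. The values are RMA intensities of NimbleGen single-colour arrays, in which the background is corrected, the arrays are brought to one distribution and the probes of a target are summarised. They are given as log2, and differences are LPS/GalN minus LPS.

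The 20S core is a barrel of stacked rings. Alpha subunits form the outer rings, which gate the entry, and beta subunits form the inner rings, in which Psmb6, Psmb7 and Psmb5 carry the caspase-like, trypsin-like and chymotrypsin-like sites. The 26S proteasome adds a regulatory cap whose ATPases unfold proteins tagged with ubiquitin and whose non-ATPase subunits bind and remove the tag. In liver, inflammation is known to swap the catalytic subunits for those of the immunoproteasome, and the transcription factors Nfe2l1 and Nfe2l2 are known to drive proteasome genes through antioxidant response elements.

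The labelled tissue showed in the defining markers of hepatocytes: all 7 were above the random-probe background on every array, with a summed level of 18.17 to 18.31 in log2 that overlapped between the groups. Median intensity per array ran from 60.4 to 63.1. Some arrays stood apart in markers of other tissues. The summed level of 13 intestinal markers was 15.26 and 15.41 on LPS arrays 1 and 2 and 12.40 to 12.78 on the other arrays, and that of 8 thymus and T cell markers was 13.42 and 12.73 on LPS/GalN arrays 2 and 3 and 8.77 to 9.35 on the others. The 7 proliferation markers read 12.13 and 11.80 on the same LPS/GalN arrays and 9.55 to 10.05 on the others. The 8 endothelial markers read 12.40 to 13.11 with LPS and 13.61 to 13.88 with LPS/GalN, with 3 of them past the threshold. The 8 Kupffer cell markers read 12.51 to 12.98 and 13.27 to 13.62, and the 9 neutrophil markers 11.48 to 11.93 and 10.19 to 11.04, with LPS and LPS/GalN in that order; 2 of the neutrophil markers were past the threshold, both lower with LPS/GalN. The part of these markers in the values below was not tested, apart from the results given without the arrays that stood apart. In a whole organ, fewer cells of a type and less RNA per cell cannot be told apart.

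Promoter sequences show where 4 of the genes sit in this comparison. RefSeq promoters of assembly GRCm38.p6, a different build from the mm9 gene positions in the array files, were matched for 30 of the 38 genes. The 250 bases before the transcription start were searched on both strands for TGACNNNGC, the core letters of the antioxidant response element, and for CCAAT. Capitals mark TGACNNNGC. Psmb5 and Psmb6 are shown because they encode catalytic subunits and hold the motif, and Psma5 and Psmd5 because, of the genes with a sequence, they had the most negative and the most positive difference and hold neither motif. All are written 5′ to 3′ in the direction of the gene.
Psma5, chr3:108256676-108256925, plus strand: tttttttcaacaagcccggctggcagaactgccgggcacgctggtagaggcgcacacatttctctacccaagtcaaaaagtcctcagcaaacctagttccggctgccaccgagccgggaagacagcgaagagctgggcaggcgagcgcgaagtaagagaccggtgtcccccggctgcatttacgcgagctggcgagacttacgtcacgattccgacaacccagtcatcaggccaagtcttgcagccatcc
Psmb5, chr14:54617996-54618245, minus strand: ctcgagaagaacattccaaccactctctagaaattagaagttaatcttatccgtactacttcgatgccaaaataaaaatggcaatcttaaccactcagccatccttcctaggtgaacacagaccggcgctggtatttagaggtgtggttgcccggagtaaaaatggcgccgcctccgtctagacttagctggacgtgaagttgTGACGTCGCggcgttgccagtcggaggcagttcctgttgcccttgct
Psmb6, chr11:70525107-70525356, plus strand: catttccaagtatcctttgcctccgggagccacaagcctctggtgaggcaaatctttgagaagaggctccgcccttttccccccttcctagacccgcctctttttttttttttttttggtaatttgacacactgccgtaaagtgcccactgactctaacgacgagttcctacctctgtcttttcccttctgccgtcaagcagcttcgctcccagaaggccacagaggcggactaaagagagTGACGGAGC
Psmd5, chr2:34870963-34871212, minus strand: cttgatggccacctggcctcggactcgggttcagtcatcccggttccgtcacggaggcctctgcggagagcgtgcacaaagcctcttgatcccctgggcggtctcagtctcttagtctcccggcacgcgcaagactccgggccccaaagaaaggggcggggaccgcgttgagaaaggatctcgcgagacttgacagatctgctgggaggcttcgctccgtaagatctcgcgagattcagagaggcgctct

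The motif begins 47 bases before the start of Psmb5 and 9 bases before that of Psmb6. Over the 30 genes, TGACNNNGC was found in 5 (16.7%): Psmb5, Psmb6, Psmc6, Psmd9 and Psmd12. It was found in 10.2% of all 32851 promoters in the same window. CCAAT was found in 11 of the 30 genes (36.7%) and in 33.8% of all promoters, and in the proteasome genes 0 matches of the pair of motifs overlapped. The 5 genes with TGACNNNGC had differences from -0.19 to 0.36, median 0.05, against a median of 0.14 for the genes without it. The 11 genes with CCAAT had differences from -0.50 to 0.53, median -0.18, against a median of 0.14 for the genes without it. Among the 11 are the alpha subunits Psma1, Psma2, Psma3, Psma6 and Psma7. Whether the median goes with the motif or with the alpha subunits was not tested. The motif matches are descriptions of letters, not of sites in use.

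No gene of the standing proteasome passed the test between the groups. With limma over all features and Benjamini-Hochberg adjustment, 0 of the 38 genes passed an adjusted p under 0.05, while 3.02% of all features were called lower and 0.609% higher with LPS/GalN. At an unadjusted p under 0.05, 4 genes were lower (10.5%, Psmd7, Psma5, Psmf1 and Psmd10) and 2 were higher (5.3%, Psmd5 and Psmd4), against 9.05% of all features lower and 8.5% higher. The median difference of the 38 genes was 0.11, with quartiles of -0.19 and 0.20, and that of all features was 0.05, with quartiles of -0.27 and 0.34. Without LPS/GalN array 3 the medians were -0.01 and 0.05, so the positive median of the 38 genes rested on that array. The smallest adjusted p, 0.070, belonged to Psmd7. The threshold was close for that gene. Psmd7 alone was called at an adjusted p under 0.1 or with the mean of its targets. Psma5 and Psmd7 were called with an offset of 32 added to the intensities or on the 34 genes of the deposited series table. Psma5, Psmd7, Psmf1 and Psmd4 were called with a variance trend and robust estimation. Over all features, 1324 of 36456 were called in the main fit. That count was 2166 at an adjusted p under 0.1, 1360 with the mean of targets and 1933 with the offset. It was 2020 of 14935 on the series table and 2526 of 36456 with trend and robust estimation. The proteasome shares were near or below these, except with trend and robust estimation.

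How much change these arrays leave room for is shown by the intervals. For 31 of the 38 genes, the 95% interval of the difference lay within 2-fold in either direction. These include Psma8, which was at the random-probe level, and Psmg2 and Psmc3ip, with means of 5.68 and 5.73 in the LPS group. So close to background, an interval does not bound a change. The 3 LPS and the 3 LPS/GalN values were apart, with LPS/GalN lower, for 7 genes (18.4%): Psma4, Psma5, Psma7, Psmc2, Psmd7, Psmd10 and Psmf1. They were apart with LPS/GalN higher for 6 genes (15.8%): Psmb3, Psmb6, Psmb7, Psmc4, Psmd4 and Psmd5. Among all features the shares were 11.1% and 12.9%.

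**Figure D1:**
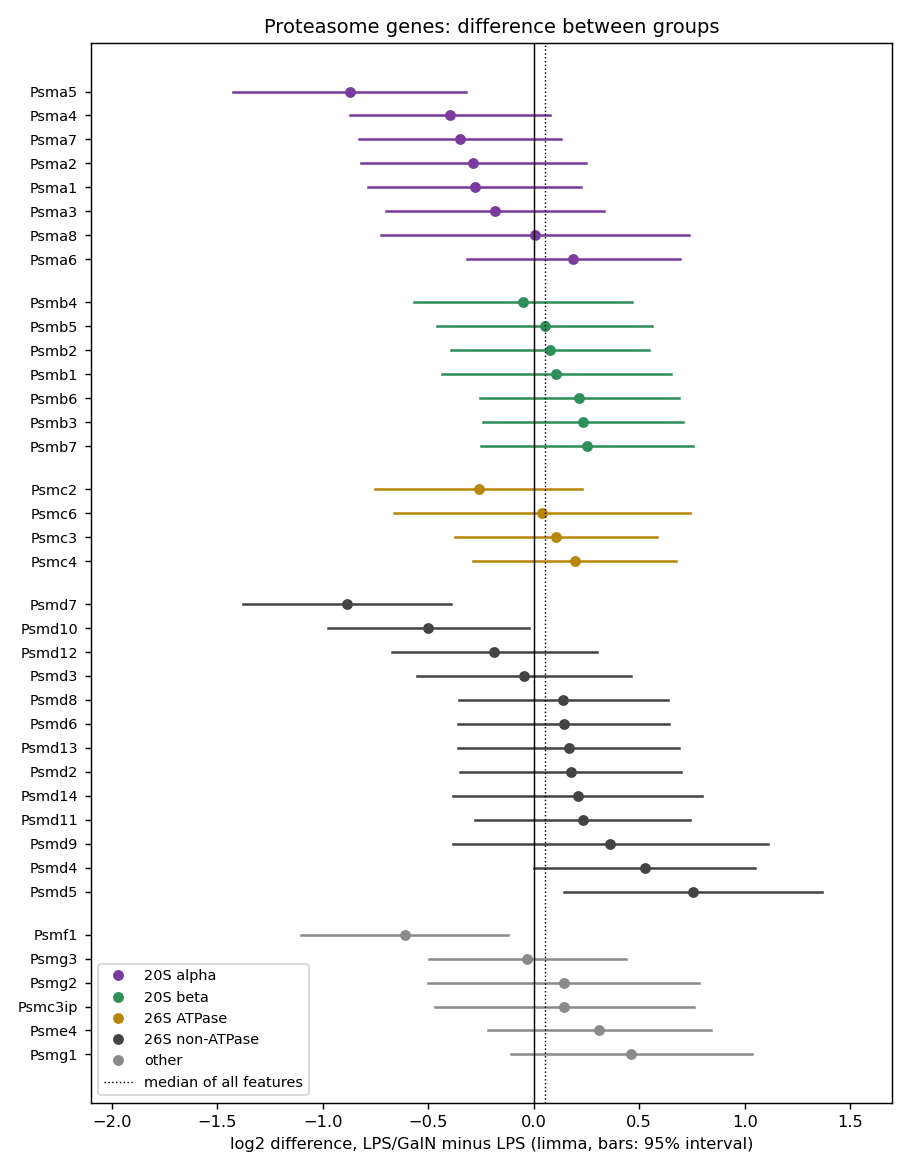
Log2 difference between LPS/GalN and LPS (horizontal axis) for each of the 38 genes, ordered within role groups, with 95% intervals from limma (n = 3 per group); the dotted line is the median of all features, 0.05. Points lie between -0.88 (Psmd7) and 0.75 (Psmd5), and 0 of the genes passed an adjusted p under 0.05.

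The alpha subunits of the core leaned below 0. Of the 8, 6 had a negative difference and 3 had groups that did not overlap, all with LPS/GalN lower; 0 were called by limma, the smallest adjusted p being 0.106. Over all features, 45.1% had a negative difference, 11.1% had groups apart with LPS/GalN lower, and 3.02% were called lower. The median was -0.28, against 0.05 over all features. Without Psma8, which was not above the random-probe background on all arrays, 6 of 7 were negative and the median was -0.29. The lean was also present with LPS arrays 1 and 2 left out (7 of 8 negative, median -0.38) and with LPS/GalN arrays 2 and 3 left out (7 of 8 negative, median -0.43). The step from 6 to 7 came from Psma8 alone, at -0.32 and -0.53 in these fits. Without Psma8 the count stayed at 6 of 7.

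Psma5 encodes an outer-ring subunit (mm9 chr3:108060107-108082892). It read 11.05, 10.94 and 11.03 on the LPS arrays and 9.98, 9.92 and 10.51 on the LPS/GalN arrays. Every LPS value lay above every LPS/GalN value, and LPS/GalN array 3 was the nearest to the LPS group. The difference was -0.87 (SE 0.24, 95% interval -1.43 to -0.32), a 1.83-fold lower mean, with an adjusted p of 0.106 by limma. Psma4, the next in size, read 11.71, 11.61 and 11.65 with LPS and 11.17, 11.22 and 11.39 with LPS/GalN, a difference of -0.40 (SE 0.21, adjusted p = 0.373 by limma). Its groups were apart as well.

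Psma7 read 13.35, 13.49 and 13.50 with LPS and 13.08, 13.22 and 12.98 with LPS/GalN. The groups were apart by a small gap, and the difference was -0.35 (SE 0.21, adjusted p = 0.443 by limma). Psma3 read 12.77, 12.77 and 12.76 with LPS and 12.46, 12.42 and 12.88 with LPS/GalN. Here LPS/GalN array 3 lay above all LPS arrays, so the groups overlapped, and the difference was -0.18 (adjusted p = 0.736 by limma). A target on chr6 described as resembling this subunit gave -0.13; whether the targets share signal was not tested, and the value of Psma3 is uncertain to that extent.

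Psma2 and Psma1 had differences of -0.29 and -0.28, and Psma6, alone among the core alpha subunits above background, had a positive one, 0.19. All 3 overlapped between the groups. Psma8, the testis form, read 5.13, 4.60 and 5.35 with LPS and 4.49, 5.31 and 5.30 with LPS/GalN, above the random-probe row on 2 of 3 arrays in each group. Its level was thus at background, and the difference of 0.01 carries no information on change.

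**Figure D2:**
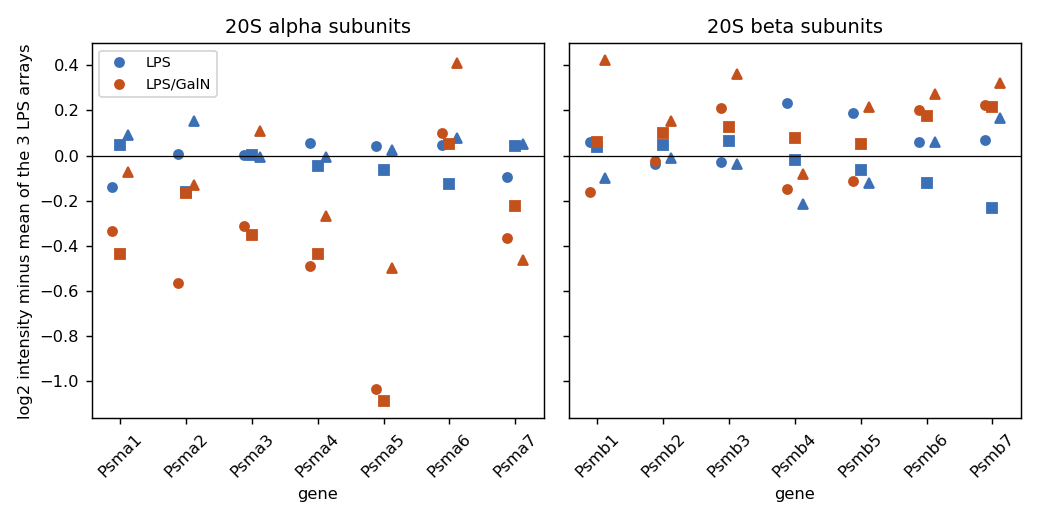
Log2 intensity on each array minus the mean of the 3 LPS arrays (vertical axis) for the core alpha subunits without Psma8 (left) and the core beta subunits (right), LPS in blue and LPS/GalN in orange, with circles, squares and triangles for replicates 1, 2 and 3. The alpha subunits reach down to Psma5, at a mean difference of -0.87, while the beta subunits lie in a narrow band of mean differences from -0.05 to 0.25.

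The beta subunits stayed in a narrow band. Their 7 differences ran from -0.05 (Psmb4) to 0.25 (Psmb7), with a median of 0.11, 6 positive values and 0 called genes; by limma the smallest adjusted p was 0.613, and 0 had an unadjusted p under 0.05. Over all features, 54.9% had a positive difference, 3.02% were called lower and 0.609% higher, and 9.05% and 8.5% were lower and higher at an unadjusted p under 0.05, so counts of 0 among 7 genes are near these shares. For all 7, the 95% interval excluded a change of 2-fold or more. The sign was not stable: with LPS/GalN arrays 2 and 3 left out, 3 of 7 were positive and the median was -0.02, and with LPS arrays 1 and 2 left out all 7 were positive. In the main fit the alpha and beta rings of the same particle had medians on different sides of the median of all features. This contrast was not tested. With LPS/GalN arrays 2 and 3 left out, both medians lay below that of all features, 0.04. On the 14935 features of the deposited series table the median of all features was 0.11, like that of the beta subunits.

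The catalytic subunits were well above background on every array. Psmb5 (mm9 chr14:55232955-55236835), the chymotrypsin-like subunit whose promoter is printed above, read 11.80, 11.55 and 11.49 with LPS and 11.50, 11.66 and 11.82 with LPS/GalN. On this target, the brightest of the gene, the groups interleaved, with a difference of 0.05 (95% interval -0.46 to 0.56). A second target read 11.31, 11.40 and 11.39 with LPS and 11.47, 11.48 and 11.67 with LPS/GalN, with groups apart. The groups of the dimmest target overlapped. Psmb6 (mm9 chr11:70338909-70341151), the caspase-like subunit, read 12.79, 12.61 and 12.80 with LPS and 12.93, 12.91 and 13.00 with LPS/GalN. Its LPS/GalN values were all higher, by a mean of 0.22 (95% interval -0.26 to 0.69, adjusted p = 0.650 by limma).

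Psmb7 (mm9 chr2:38443555-38499427), the trypsin-like subunit, read 12.94, 12.64 and 13.04 with LPS and 13.10, 13.09 and 13.20 with LPS/GalN. The groups did not overlap, though LPS arrays 1 and 3 came close, and the difference was 0.25 (95% interval -0.25 to 0.75). With LPS arrays 1 and 2 left out it was 0.09. Psmb3, a subunit without a catalytic site, read 11.06, 11.15 and 11.05 with LPS and 11.30, 11.22 and 11.45 with LPS/GalN, a difference of 0.23; its groups were apart too.

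Psmb4, also without a catalytic site, read 10.76, 10.51 and 10.31 with LPS and 10.38, 10.60 and 10.45 with LPS/GalN, so that the LPS arrays spread more widely than the groups differed. Psmb1 and Psmb2 had differences of 0.11 and 0.08, with overlapping groups. The immunoproteasome counterparts stood apart from these values: Psmb10, Psmb9 and Psmb8 differed by -1.64, -1.69 and -0.77 (adjusted p = 0.0046, 0.031 and 0.165 by limma). The activator genes Psme2 and Psme1, left out with them, differed by -0.78 and -0.43 (adjusted p = 0.099 and 0.353 by limma).

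**Figure D3:**
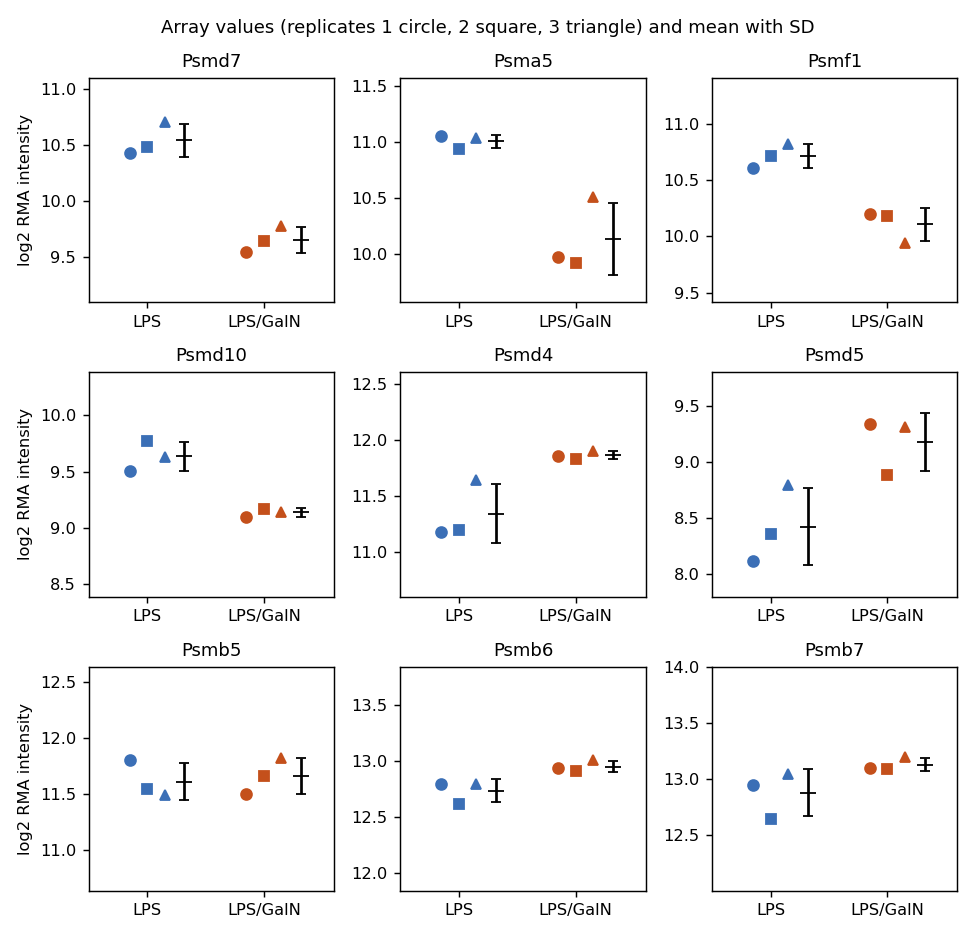
Log2 RMA intensity on each array (vertical axis, 2 units in every panel) for 9 genes, LPS in blue and LPS/GalN in orange, with circles, squares and triangles for replicates 1, 2 and 3 and black bars for mean and SD. The groups are apart in Psmd7, Psma5, Psmf1 and Psmd10, with LPS/GalN lower, and in Psmd4, Psmd5, Psmb6 and Psmb7, with LPS/GalN higher. Those of Psmb5 interleave on the target shown.

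The ATPases, which unfold substrates at the entry of the core, had a median difference of 0.07. The median was 0.14 without LPS arrays 1 and 2. Without LPS/GalN arrays 2 and 3 it was -0.07, with 3 of 4 negative, so the sign was not stable. Psmc2 read 11.43, 11.48 and 11.69 with LPS and 11.39, 11.29 and 11.14 with LPS/GalN. The groups were apart by the gap between 11.43 and 11.39 alone, and the difference was -0.26 (adjusted p = 0.589 by limma). Psmc4 read 11.69, 11.72 and 11.71 with LPS and 11.83, 11.79 and 12.08 with LPS/GalN, a difference of 0.19 with groups apart (adjusted p = 0.696 by limma). A second target of Psmc4 gave -0.12, so its sign depends on the target.

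Psmc3 read 13.26, 13.29 and 13.30 with LPS and 13.28, 13.33 and 13.56 with LPS/GalN, with overlap. Psmc6 read 8.65, 8.84 and 8.11 with LPS and 8.16, 8.55 and 9.00 with LPS/GalN, a spread within each group far wider than its difference of 0.04. All 4 ATPases had 95% intervals within 2-fold. Of the ring's other subunits measured under another spelling, Psmc1 differed by 0.33 and Psmc5 by 0.08 (adjusted p = 0.471 and 0.885 by limma).

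The non-ATPase subunits held both ends of the range. Of 13 genes, 9 had a positive difference, with a median of 0.17. The median was 0.05 without LPS arrays 1 and 2 and 0.13 without LPS/GalN arrays 2 and 3, with 8 of 13 positive in each. Psmd7 is a scaffold subunit of the lid and the partner of the deubiquitinase Psmd14 (mm9 chr8:110104648-110112359). It read 10.43, 10.49 and 10.71 with LPS and 9.55, 9.64 and 9.78 with LPS/GalN. The gap between the groups was wider than the range within either. The difference was -0.88 (SE 0.21, 95% interval -1.38 to -0.39), a 1.85-fold lower mean, with an adjusted p of 0.070 by limma.

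A second target of Psmd7 gave -1.07. Leaving out 1 array at a time moved the difference of Psmd7 between -0.80 and -0.95, and it was -1.05 without LPS arrays 1 and 2 and -0.99 without LPS/GalN arrays 2 and 3. Its binding partner Psmd14, the subunit that cuts the ubiquitin chain off, had a difference of 0.21 with overlapping groups (adjusted p = 0.738 by limma). Leaving out 1 array at a time moved it between -0.0040, without LPS/GalN array 3, and 0.38.

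Psmd10 (mm9 chrX:137483478-137491217) encodes gankyrin, an assembly chaperone of the cap. It and Psmd4 are described in full because of their unadjusted p, a choice made after their values were seen. Psmd10 read 9.51, 9.77 and 9.63 with LPS and 9.10, 9.17 and 9.14 with LPS/GalN. The LPS/GalN arrays were close together below all LPS arrays, and the difference was -0.50 (SE 0.21, adjusted p = 0.264 by limma). Its second target gave -0.96 with an adjusted p of 0.080 when every target was tested by limma on its own.

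Psmd5 (mm9 chr2:34707619-34726447), an assembly chaperone of the ATPase base, was at the other end. It read 8.12, 8.35 and 8.79 with LPS and 9.34, 8.88 and 9.31 with LPS/GalN. LPS array 3 and LPS/GalN array 2 nearly met. The difference was 0.75 (SE 0.26, 95% interval 0.14 to 1.36), a 1.69-fold higher mean, with an adjusted p of 0.190 by limma. Without LPS arrays 1 and 2, those with the high intestinal markers, it was 0.38; the part of those markers in the result was not tested.

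Psmd4 (mm9 chr3:94836618-94846461) encodes a ubiquitin receptor of the cap. It read 11.18, 11.20 and 11.64 with LPS and 11.86, 11.83 and 11.90 with LPS/GalN. The LPS/GalN arrays nearly coincided above all LPS arrays, of which array 3 was the nearest. The difference was 0.53 (SE 0.23, adjusted p = 0.282 by limma) and was 0.22 without LPS arrays 1 and 2. A separate target at the same gene position, described under the older name S5a, gave 0.12 with an adjusted p of 0.831 by limma, so the targets of this gene disagree in size.

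Psmd3, a scaffold of the lid, read 9.57, 9.91 and 9.75 with LPS and 9.87, 9.64 and 9.57 with LPS/GalN, and Psmd8, another lid subunit, read 13.44, 13.75 and 13.58 with LPS and 13.77, 13.58 and 13.84 with LPS/GalN. On these chosen targets both genes overlapped between the groups. A second target of Psmd8 read 13.42, 13.51 and 13.56 with LPS and 13.72, 13.69 and 13.92 with LPS/GalN. There the groups were apart. Those of its dimmest target were apart too, by the gap between 6.475 and 6.482 alone. The scaffold of the base, Psmd2, differed by 0.18 and the assembly chaperone Psmd9 by 0.36. The lid subunits Psmd6, Psmd11, Psmd12 and Psmd13 differed by 0.14, 0.23, -0.19 and 0.17. On the chosen targets of these 6 genes the groups overlapped as well. A second target of Psmd11 had groups apart, at 10.90, 10.56 and 10.78 with LPS and 11.25, 10.99 and 11.36 with LPS/GalN. Its other targets and those of Psmd2 overlapped. Psmd9 was dim, with a mean of 6.04 in the LPS group. Leaving out 1 array at a time moved the difference of Psmd9 between 0.10, without LPS array 1, and 0.66, without LPS array 2.

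Among the other genes, Psmf1 (mm9 chr2:151543429-151566895) encodes PI31, a protein first described as an inhibitor of the core. It read 10.61, 10.72 and 10.82 with LPS and 10.20, 10.18 and 9.94 with LPS/GalN. The groups were apart, and the difference was -0.61 (SE 0.21, 95% interval -1.10 to -0.12), a 1.53-fold lower mean, with an adjusted p of 0.186 by limma. It was -0.72 without LPS arrays 1 and 2 and -0.51 without LPS/GalN arrays 2 and 3.

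Of the chaperones that build the alpha ring, Psmg1 and Psmg2 had positive differences and Psmg3 one near 0 on its brightest target. Psmg1 read 9.00, 9.20 and 9.64 with LPS and 9.79, 9.57 and 9.86 with LPS/GalN, a difference of 0.46 (adjusted p = 0.390 by limma) with an overlap at LPS array 3; without LPS arrays 1 and 2 it was 0.10. Its partner Psmg2 was dim, at 5.42, 5.64 and 5.99 with LPS and 5.52, 5.70 and 6.25 with LPS/GalN. Psmg3 read 8.43, 8.32 and 8.50 with LPS and 8.42, 8.38 and 8.36 with LPS/GalN, a difference of -0.03. A second target of Psmg3, also above background on all arrays, gave -0.34 with overlapping groups, so the targets disagree in size. The activator Psme4 and the recombination factor Psmc3ip differed by 0.31 and 0.15, both with overlap.

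Where a gene had several targets, these mostly gave the same sign. Several targets were present for 15 of the 38 genes, and for 10 of them at least 2 were above background on all arrays. In 9 of those 10 genes the bright targets shared a sign, Psmc4 being the exception. Among the bright targets of these 10 genes the largest spread was that of Psmd10, from -0.50 to -0.96. With dim targets counted, Psmd11 spread more widely, from -0.74 on a dim target to 0.46 on a bright one.

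Across arrays, LPS/GalN array 3 stood highest. The median over the 38 genes of the value minus the LPS mean was -0.06, -0.04 and 0.07 on the LPS arrays and -0.02, 0.03 and 0.27 on the LPS/GalN arrays. Array 3 was thus above the other LPS/GalN arrays by more than the LPS arrays differed among themselves, while the median of all features on it, 0.03, was like that of the others, 0.04 and 0.03. For the alpha subunits the medians were -0.43, -0.29 and -0.10 on LPS/GalN arrays 1, 2 and 3, all below the LPS arrays.

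Partners of the proteasome were read from the same fit. Of 33 listed genes, 31 were measured: ubiquitin genes and activating enzymes, shuttle factors, receptors and deubiquitinases of the cap, assembly factors and regulators of transcription. By limma 1 was lower and 0 were higher past the threshold, and at an unadjusted p under 0.05 there were 3 lower and 4 higher. Over all features the shares were 3.02% and 0.609% past the threshold and 9.05% and 8.5% at the unadjusted p. By these tests the counts of lower partners are near the background, while the 4 higher ones are a larger share than 8.5%. The groups were apart for 8 of the 31 with LPS/GalN lower and for 8 with LPS/GalN higher. These are larger shares than the 11.1% and 12.9% of all features. However, 16684 of the 36456 features were dim, above the random-probe background on fewer than 6 arrays, against 3 of the partners. Shares among bright features alone were not computed. The median difference of the partners was 0.06.

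The partner that fell was Nfe2l2, the transcription factor NRF2 that binds antioxidant response elements. It read 9.59, 9.62 and 9.60 with LPS and 8.64, 8.43 and 8.16 with LPS/GalN. The LPS arrays were almost identical and all LPS/GalN arrays lay lower, a difference of -1.19 (SE 0.22) and a 2.29-fold lower mean, with an adjusted p of 0.026 by limma. Without single arrays the difference ran from -1.31 to -1.07; by limma the call was kept without LPS/GalN array 1 and lost without any other (adjusted p = 0.067 to 0.099). Without LPS arrays 1 and 2 it was -1.19 (adjusted p = 0.403 by limma) and without LPS/GalN arrays 2 and 3 -0.96 (adjusted p = 0.278 by limma). A second target of Nfe2l2 gave -0.11, and with the mean of both the difference was -0.65 (adjusted p = 0.303 by limma). The 5 proteasome genes with its core motif in the promoter, Psmb5 and Psmb6 among them, had differences from -0.19 to 0.36, and 0 of them were called. Over all features 3.02% were called lower and 0.609% higher, so a count of 0 among 5 genes is near these shares. Whether the level of Nfe2l2 bears on these genes was not tested.

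Nfe2l1, the related factor that restores proteasome genes when the proteasome is blocked, read 13.59, 13.74 and 13.66 with LPS and 13.15, 12.86 and 13.14 with LPS/GalN, apart between the groups, with a difference of -0.61 (adjusted p = 0.185 by limma). The shuttle proteins Ubqln4, Ubqln2 and Ubqln1, which carry tagged proteins to the cap, differed by 0.86, 0.88 and 0.70 (adjusted p = 0.073, 0.182 and 0.135 by limma), each with all LPS/GalN values higher. Usp14, a deubiquitinase of the cap, differed by -0.72, and Psme3, a nuclear activator of the core, by 0.58 (adjusted p = 0.275 and 0.192 by limma). The ubiquitin gene Ubb differed by -0.29 and Pomp, which matures the core, by -0.14, both without passing the test.

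**Figure D4:**
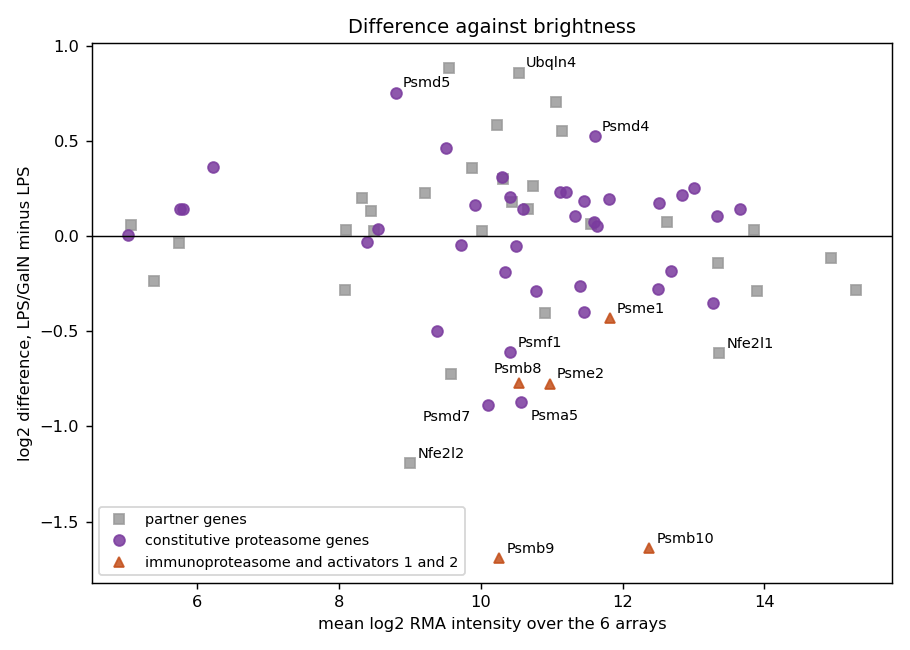
Log2 difference between LPS/GalN and LPS (vertical axis) against the mean log2 RMA intensity over the 6 arrays (horizontal axis) for the 38 proteasome genes (circles), 31 partner genes (squares) and the 5 immunoproteasome and activator genes left out by the rule (triangles). Psmb9 and Psmb10 lie near -1.69 and -1.64, while the proteasome genes lie between -0.88 and 0.75 at all intensities.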

How the data were processed

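For each array the authors deposited RMA intensity values on a linear scale, per the file headers. RMA is named in the submitters' processing notes, and its version is not given in the sources used here. Because RMA brings the arrays to 1 distribution, a change in all RNA would not show. Each of 44170 targets was summarised from 3 probes in most cases, with gene positions on mm9; positions of probes were not used here. The number of arrays limits the precision.

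Targets were joined by gene name, keeping the one with the highest mean, which left 36456 features. Their log2 intensities were compared with limma 3.58.1 (lmFit and eBayes, two-sided) in R 4.3.3, with adjusted p under 0.05 over all features as the threshold. Background was the row of random probes on each array. Promoters came from RefSeq (GRCm38.p6). The steps were tested on simulated data.

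The members and lists were chosen with earlier results of these data known. Array values are given for the genes with the 2 largest and the 2 smallest differences in each role group, the catalytic subunits and called partners; others were chosen after their values were seen. Paaf1 and Ddi2 of the partner list were not matched. Alternatives covered normalization, offset, targets, filter, variance model, replicate block and left-out arrays.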

Additional observations from a re-analysis of the deposited data

How the results depend on the processing

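The count of called proteasome genes was 0 by limma and 0 in each fit without 1 array. It became 1 with the mean of a gene's targets, 1 at an adjusted p under 0.1, 2 with an offset of 32, 2 on the deposited series table and 4 with a variance trend and robust estimation. The partner count of 1 became 0 with the mean of targets, 3 with the offset, 3 on the series table, 5 with trend and robust estimation, 2 at an adjusted p under 0.1, 0 without LPS arrays 1 and 2, 0 without LPS/GalN arrays 2 and 3, and 0 to 1 without 1 array. The count over all features, 1324, became 2020 on the series table (of 14935), 2526 with trend and robust estimation, 2166 at an adjusted p under 0.1, 0 without LPS arrays 1 and 2, 273 without LPS/GalN arrays 2 and 3 and 684 to 1713 without 1 array. The causes were not tested beyond what fewer arrays and the looser threshold do by construction. Replicate numbers gave no sign of pairing over all features: the deviations of same-numbered arrays correlated at 0.0022, -0.0026 and 0.026. Arrays that stood apart in tissue markers enter these values, so they cannot settle whether the samples were paired. With the replicate block, 943 features, 0 proteasome genes (smallest adjusted p 0.136) and 0 partners were called. Over 680 values of the 38 genes under the alternatives, 38 had another sign than the main value, and 25 genes had none. Genes near the random-probe level, such as Psma8, cannot show a fall.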
